A study of Homo sapiens with 16 samples.

Results

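LNCaP cells given OSMI2 were compared with LNCaP cells given a scrambled siRNA (Scr), all of them treated with 0.5 μM AT7519 for 4 hours before harvest. The samples were chosen by their labels, and they are 4 of the 16 RNA samples of the series, with 2 replicates in each group. The series holds 8 groups of 2: Scr, 2 siRNAs against OGT (siOGT1 and siOGT2, 48 hours of knockdown) and OSMI2, each with DMSO or AT7519. LNCaP is an androgen-responsive prostate cancer cell line that came from a lymph node metastasis, and every sample is from this line. The labels give OSMI2 in the field for the siRNA, and they state neither its dose and time nor whether those cells also received scrambled siRNA. The Scr cells were transfected with an siRNA, so a difference between the groups cannot be told apart from a difference in transfection. By its title the series is about splicing and the activity of CDK9, and this comparison asks how gene expression under the kinase inhibitor differs when OGT is inhibited too. The same comparison with DMSO in place of AT7519 rests on 4 other samples, and its values are set beside the main ones.

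OGT is the enzyme that attaches single N-acetylglucosamine sugars to serines and threonines of nuclear and cytoplasmic proteins, RNA polymerase II and many transcription factors among them, and OGA removes them. OSMI2 is a small molecule that inhibits OGT. AT7519 inhibits several cyclin-dependent kinases, including CDK9, the kinase of the elongation factor P-TEFb, which releases paused RNA polymerase II into the gene body. Messenger RNAs with short half-lives, such as those of immediate early genes, are known to fall fastest when transcription is blocked.

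Total counts of the 4 samples were 71158988 and 40216911 with OSMI2 and 62420179 and 74725033 with Scr, against 40216911 to 147019364 over the series. Of 60252 genes, 23830 passed the low-count filter and were tested. Across genes, replicates correlated at r = 0.991 to 0.996. On the second principal component (15% of variance) the OSMI2 samples with AT7519 stood at 20.7 and 22.6 and the Scr samples at 3.9 and 8.3. The 13 luminal prostate markers were all tested and summed to 6042 and 6856 CPM (counts scaled by TMM to a common library size) with OSMI2 and to 6475 and 5951 CPM with Scr. Of 10 leukocyte markers 2 were tested, at sums of 0.0263 to 0.130 CPM, and none of the basal, neuroendocrine, stromal or leukocyte markers tested was called. The stromal list summed to 953 and 946 CPM with OSMI2 and to 717 and 906 CPM with Scr. The labels do not state separate cultures for replicates, so p-values measure only the spread of these samples, and that spread may be technical. In bulk RNA, fewer cells and less RNA per cell cannot be told apart.

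With AT7519, OSMI2 cells differed from Scr cells at 3382 genes (14.2% of those tested) at a Benjamini-Hochberg adjusted p under 0.05 in edgeR's quasi-likelihood test, two-sided, which gave every adjusted p below. Of these, 1235 were higher (5.18%) and 2147 lower (9.01%) with OSMI2, and the median over all tested genes was 0.02 on the log2 scale. At least 2-fold, 370 genes were higher (1.55%) and 191 were lower (0.802%). Over the alternatives tried, the 370 ranged from 27 to 560 and the 191 from 65 to 352. The balance was reversed among abundant protein-coding genes (average log2 CPM no lower than 3, with a 3′ UTR). There, 12 were called higher and 91 lower by at least 2-fold. The split of all calls depended on the scaling. With TMM scaling 36.5% of them were higher, with RLE 30.5%, with upper-quartile scaling 58.3% and with library size alone 58.7%. Leaving out OSMI2 replicate 2, the library with the lowest total, left 1583 calls, and leaving out Scr replicate 1 left 1708. Both OSMI2 samples lay above both Scr samples at 6377 genes (26.8%) and below them at 6099 (25.6%). Among the 9586 protein-coding genes with a mean log2 CPM of 3 or more, the level of most members of the gene lists below, 5.51% were called higher and 20.3% lower.

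**Figure D1:**
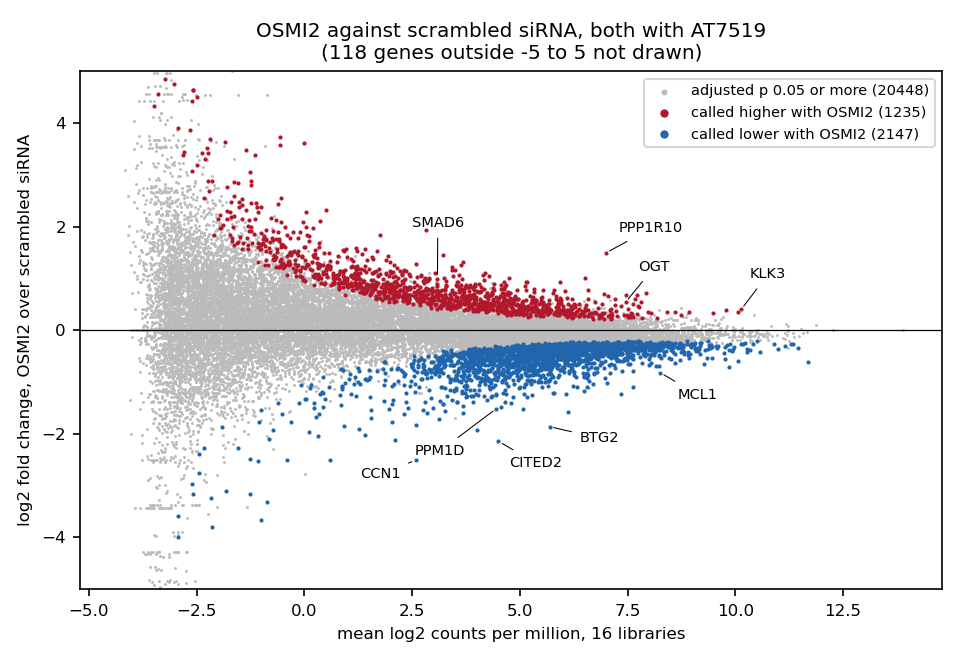
Each point is a tested gene, with the mean log2 CPM over the 16 libraries on the x axis and the log2 fold change of OSMI2 over Scr, both with AT7519, on the y axis. The 1235 genes called higher and the 2147 called lower are coloured, named genes are marked, and 118 genes outside -5 to 5 are not drawn.

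With DMSO the same arms differed at 710 genes (2.98%), of which 117 were higher (0.491%) and 593 lower (2.49%) with OSMI2. That count fell to 9 without Scr replicate 2 of the DMSO samples. Of the genes lower with AT7519, 476 were also called lower with DMSO, which is 22.2% of the former and 80.3% of the latter. Both comparisons called 64 genes higher, 5.18% of those higher with AT7519 and 54.7% of those higher with DMSO, and 4 genes had opposite calls. Of the 2147 genes lower with AT7519, 1951 (90.9%) had a value below 0 with DMSO too, at a median of -0.23. Across all tested genes the log2 fold changes correlated with a Pearson r of 0.155 and a Spearman rho of 0.355, a description across genes, which are not independent replicates. The difference between the OSMI2 effects with AT7519 and with DMSO (an interaction term) was called at 178 genes (0.747%), at 20 of them with a higher effect under AT7519 (0.0839%) and at 158 with a lower one (0.663%). Among the 9586 protein-coding genes with a mean log2 CPM of 3 or more, 20.3% were called lower and 5.51% higher with AT7519 and 5.94% lower with DMSO, and the gene lists below are set beside these shares. Of the 178 differences, 149 were called lower with AT7519 and 18 higher. The count ranged from 33 without OSMI2 replicate 2 with DMSO to 378 without OSMI2 replicate 1 with AT7519.

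OGT itself (ENSG00000147162) was higher with OSMI2. It stood at 422 and 408 CPM with OSMI2 and AT7519 and at 256 and 314 CPM with Scr and AT7519, so the groups did not overlap (log2 fold change 0.54, SE 0.13, adjusted p = 0.00875). Its call was lost without OSMI2 replicate 1, without OSMI2 replicate 2 and without Scr replicate 1. With DMSO it stood at 349 and 336 CPM against 274 and 263 CPM (0.35, SE 0.13, adjusted p = 0.168). In siOGT1 and siOGT2 cells with AT7519, whose comparison uses the same 2 Scr samples, OGT stood at 11 and 11 CPM and at 29.3 and 33.8 CPM (-4.70, SE 0.15, and -3.18, SE 0.14). OGA stood at 301 and 308 CPM with OSMI2 and at 281 and 255 CPM with Scr (0.19, SE 0.22, adjusted p = 0.649), against 48.5 and 56.8 CPM in siOGT1 and 64 and 69.1 CPM in siOGT2. Of 15 genes of O-GlcNAc cycling and the hexosamine pathway, which makes the donor sugar, 2 were called, both higher, and the median was 0.11. The second was GFPT1, the rate-limiting enzyme of that pathway, at 235 and 259.6 CPM against 212 and 193 CPM (0.29, SE 0.08, adjusted p = 0.0213), a call lost when any 1 of the 4 libraries was left out. Of 18 genes listed as OGT partners, chromatin factors among them, 4 were called lower and none higher. That share of 22.2% lies near the 20.3% of protein-coding genes with a mean log2 CPM of 3 or more, so it is not a result about these proteins. The corepressor SIN3A, which overlaps RPL13P4 and other tested genes, fell by 1.65-fold (-0.72, SE 0.10, adjusted p = 1.07e-04), and the other calls were PPP1R12A (-0.40), TET2 (-0.32) and KANSL1 (-0.34), each overlapping its own antisense gene. The count of 4 was 2 under upper-quartile scaling, 1 under library-size scaling, 7 under RLE and 2 without OSMI2 replicate 2.

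MYC (ENSG00000136997), a proto-oncogene transcription factor whose mRNA turns over quickly, stood at 109 and 113 CPM with OSMI2 and at 176 and 172 CPM with Scr under AT7519 (-0.64, SE 0.08, adjusted p = 3.45e-05). Both OSMI2 samples were below both Scr samples, while with DMSO the groups overlapped, at 150.4 and 155.9 CPM with OSMI2 and 155.5 and 174 CPM with Scr (-0.11, SE 0.08, adjusted p = 0.605), and the difference of the effects was called (-0.54, SE 0.11, adjusted p = 0.0281). MCL1, the short-lived antiapoptotic BCL2 family member, overlaps ADAMTSL4-AS1 and fell from 424 and 352 to 225 and 215 CPM (-0.82, SE 0.10, adjusted p = 2.79e-05). CDK9 (ENSG00000136807) fell from 92 and 92 to 72 and 62 CPM (-0.46, SE 0.08, adjusted p = 7.33e-04), a fold of 1.37. HEXIM1, which holds P-TEFb inactive and overlaps HEXIM2-AS1, had a value of 0.26 (adjusted p = 0.0746), cyclin L1 (CCNL1) of -0.25 (adjusted p = 0.116) and cyclin D1 (CCND1, overlapping LTO1) of 0.24 (adjusted p = 0.0672). These 3 were not called.

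The largest falls among protein-coding genes with a mean log2 CPM of 3 or more that overlap no other tested gene ran from -2.15 (CITED2) to -1.39 (TRIB1) on the log2 scale. CITED2 (ENSG00000164442), a transcriptional coactivator that binds CBP and p300, stood at 2.88 and 1.26 CPM with OSMI2 and 12 and 7.49 CPM with Scr, a 4.42-fold fall (-2.15, SE 0.41, adjusted p = 0.00694) whose call was lost without Scr replicate 1 (adjusted p = 0.0517). PLK2 (ENSG00000145632), a polo-like kinase induced by p53, stood at 5.15 and 3.34 CPM against 20.1 and 13.2 CPM (-1.94, SE 0.27, adjusted p = 3.41e-04). BTG2 (ENSG00000159388), an antiproliferative factor that binds the deadenylase complex, stood at 17.4 and 9.03 CPM against 49.2 and 48.7 CPM (-1.86, SE 0.26, adjusted p = 8.00e-04). The choice of these genes required both OSMI2 samples to lie below both Scr samples. In CITED2 the DMSO samples stood far above both AT7519 groups, at 41.7 and 36.2 CPM with OSMI2 and 40.4 and 40.7 CPM with Scr. PLEKHF2, an endosomal adaptor (-1.71), CLP1, an RNA kinase of pre-mRNA cleavage and tRNA splicing (-1.60), the zinc finger repressor ZNF281 (-1.52), C15orf39 (-1.46) and ZFP36L2, a protein that binds AU-rich elements and destabilises mRNAs (-1.43), followed. DUSP4, a phosphatase of MAP kinases (-1.42), ZSWIM1 (-1.39), ZBTB2 (-1.39) and TRIB1, a pseudokinase scaffold (-1.39), completed the 12. PLEKHF2 lost its call without OSMI2 replicate 2 (adjusted p up to 0.084) and without Scr replicate 1, and ZFP36L2 without OSMI2 replicate 2 (adjusted p = 0.0545). Among genes that overlap another tested gene, and whose values are uncertain for that reason, SOX4 (overlapping an unnamed gene, -1.57), METTL18 (overlapping C1orf112, -1.55) and PPM1D (overlapping RNU6-623P, -1.51) fell most. METTL18 was not called without OSMI2 replicate 2 (adjusted p = 0.0607).

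None of the 12 falls was called with DMSO, where 5.94% of protein-coding genes with a mean log2 CPM of 3 or more were called lower. Their log2 values with DMSO ran from -0.42 (PLK2) to 0.03 (ZNF281). The difference of the effects was called for BTG2, CLP1, ZSWIM1, ZBTB2 and TRIB1. It was not called for CITED2, PLK2, PLEKHF2, ZNF281, C15orf39, ZFP36L2 or DUSP4, so these falls are not shown to be particular to AT7519. PLK2 stood at 23.9 and 23 CPM with OSMI2 and 33.1 and 29.8 CPM with Scr under DMSO, and BTG2 at 89.1 and 65 CPM and 85.6 and 74.9 CPM. In siOGT1 cells with AT7519, compared with the same Scr samples, PLK2 had a log2 value of -1.57 (adjusted p = 7.04e-04), BTG2 of -0.98 (adjusted p = 0.0173) and TRIB1 of -1.48 (adjusted p = 7.50e-05), while CITED2 stood at -0.56 (adjusted p = 0.336) and CLP1 at -0.32 (adjusted p = 0.294). In siOGT2 cells the values were -0.96 for PLK2, -0.85 for BTG2, -0.59 for TRIB1, -0.46 for CITED2 and -0.12 for CLP1, of which PLK2 was called (adjusted p = 0.0304). These calls come from a fit without a replicate block, although the replicate differences of the Scr samples with AT7519 correlated across genes with those of siOGT1 (r = 0.684) and siOGT2 (r = 0.707). With a replicate block in the Scr and siOGT arms, an alternative chosen after seeing the data, TRIB1 was also called in siOGT2 cells (adjusted p = 6.3e-04). BTG2 was not called there (adjusted p = 0.0862), CITED2 and CLP1 were called in neither arm, and PLK2, BTG2 and TRIB1 were called in siOGT1 cells with the block too. These comparisons share the 2 Scr samples with the one described here.

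**Figure D2:**
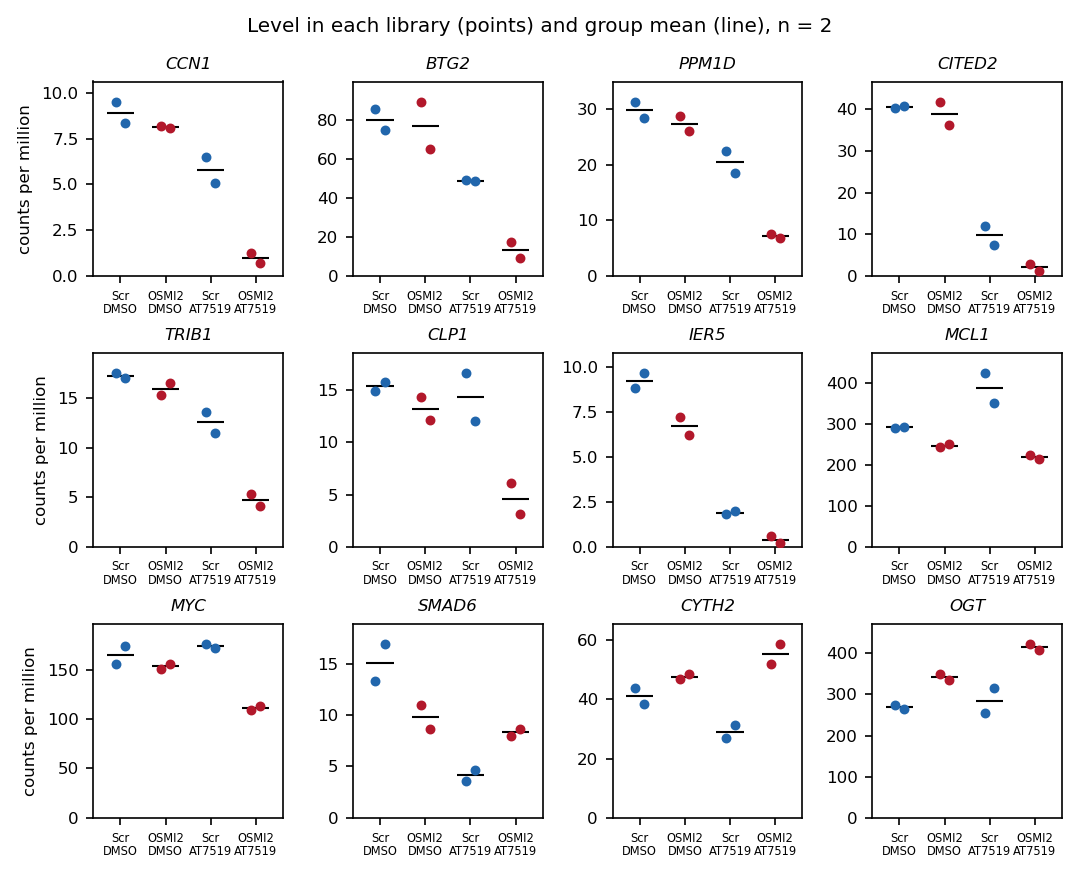
CPM of 12 genes in each library of the Scr and OSMI2 arms with DMSO and with AT7519 (points, n = 2 a group), with the group mean as a line and a linear y axis from 0. The OSMI2 samples with AT7519 are the lowest of the 4 groups for CCN1, BTG2, PPM1D, CITED2, TRIB1, CLP1, IER5, MCL1 and MYC, and the highest for CYTH2 and OGT.

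Several of the genes with large falls carry the AU-rich nonamer TTATTTATT, a motif of many short-lived transcripts. It lies in the 3′ UTR of the GENCODE v29 transcript with the longest coding sequence. A site is shown for 5 of these genes with 30 bases of GRCh38 sequence on the transcript strand, 5′ to 3′, the nonamer in capitals:
PLK2, chr5:58454065-58454094, minus strand: aataaactttTTATTTATTacagcccaaag
ZFP36L2, chr2:43223447-43223476, minus strand: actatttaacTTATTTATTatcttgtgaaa
ZNF281, chr1:200406106-200406135, minus strand: ggggcatgcaTTATTTATTatacatggcct
IER5, chr1:181092443-181092472, plus strand: gtgtcttcctTTATTTATTtatttatttaa
PPM1D, chr17:60664780-60664809, plus strand: tgagtgtattTTATTTATTtattattttgt
IER5 holds 3 copies of the nonamer in its 3′ UTR and PPM1D 2, counting overlapping copies, and the other 3 genes 1 each. Only the transcript strand was searched. It was found in 20 of 91 protein-coding genes called lower by 2-fold or more with a mean log2 CPM of 3 or more (22%), in 8.01% of all genes called lower, in 9.49% of those called higher, in 2 of 12 called higher by 2-fold or more (16.7%) and in 8.14% of all 9579 such genes with a 3′ UTR. Genes lower by 2-fold or more had longer 3′ UTRs, with a median of 1740 bases against 1042 in all genes. Among genes with 3′ UTRs of at least 1000 and under 3000 bases, 20.5% of the falls of 2-fold or more (9 of 44) and 9.03% of all genes held it. They also had fewer exons, 3 in the median against 10. IER5, at a mean log2 CPM of 2.11, is in none of these classes. These shares are descriptions, and a match is not evidence of a functional site. Decay of mRNA was not measured, and its part in the falls was not tested.

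Of 31 immediate early genes tested, which are induced within minutes by growth factors and stress, 9 were called lower (29%) and none higher, with a median of -0.25. The count was also 9 under RLE, upper-quartile and library-size scaling. Of all 14576 protein-coding genes tested 14.1% were called lower, and of those with a mean log2 CPM of 3 or more 20.3%. The latter share is an unlike background here, because CCN1 (2.58), DUSP2 (2.60), IER5 (2.11), KLF4 (2.05) and further members lay below that level. CCN1 (ENSG00000142871), a secreted matricellular protein, stood at 1.23 and 0.711 CPM with OSMI2 and 6.47 and 5.07 CPM with Scr (-2.51, SE 0.24, adjusted p = 3.03e-06), a 5.70-fold fall. IER5 stood at 0.591 and 0.211 CPM against 1.85 and 1.98 CPM (-2.12, SE 0.29, adjusted p = 8.77e-05), and the MAP kinase phosphatase DUSP2 at 1.80 and 1.21 CPM against 6.57 and 4.48 CPM (-1.83, SE 0.23, adjusted p = 4.17e-05). OSMI2 samples lay below Scr samples in all 3. These genes were named for a small adjusted p in this comparison, so the separation is not further evidence. The transcription factor KLF4 stood at 0.930 and 0.948 CPM against 2.37 and 2.43 CPM (-1.36, SE 0.22, adjusted p = 3.12e-04). SRF, the factor that drives many of these genes, fell by 1.52-fold (-0.61, SE 0.09, adjusted p = 1.22e-04). KLF6 (-0.65), JUN (-0.70), DUSP4 and BTG2 made up the rest. Other members of the list stood close in both arms with AT7519: NR4A1 had a log2 value of -0.05, ATF3 of 0.03, DUSP1 of -0.21 and IER2 of -0.15, none of them called. With DMSO, ATF3 was called higher (0.46, adjusted p = 0.0224), the only member called there. FOS and EGR1 had at most 0.318 CPM in any of the 8 Scr and OSMI2 samples. The difference between the effects with AT7519 and DMSO was called lower for CCN1 (-2.38, SE 0.30, adjusted p = 0.00106), DUSP2 (-1.40), IER5 (-1.66), KLF4 (-1.33) and BTG2 (-1.80). That count was 1 when any DMSO library was left out and 2 without OSMI2 replicate 2 or Scr replicate 1 with AT7519, and the difference of CCN1 was called under all 17 alternatives tried for it.

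Chosen by the same conditions, the 12 largest rises ran from 0.87 to 1.06, against -1.39 to -2.15 for the 12 falls. NRBP2 (ENSG00000185189), a pseudokinase, stood at 14.7 and 15.1 CPM with OSMI2 and 6.86 and 7.44 CPM with Scr (1.06, SE 0.20, adjusted p = 0.00141). NIBAN1, a stress-induced regulator of translation, stood at 35.5 and 26.5 CPM against 15.8 and 14.5 CPM (1.04, SE 0.24, adjusted p = 0.0118) and was also called higher with DMSO (0.997), but was not called without OSMI2 replicate 1, Scr replicate 1 or Scr replicate 2 (adjusted p up to 0.107). SMAD6 (ENSG00000137834), an inhibitor of BMP signalling, stood at 8 and 8.63 CPM against 3.58 and 4.70 CPM (0.998, SE 0.18, adjusted p = 9.14e-04). CYTH2 (ENSG00000105443), a guanine nucleotide exchange factor for ARF GTPases, stood at 51.9 and 58.6 CPM against 26.8 and 31.3 CPM (0.93, SE 0.11, adjusted p = 2.66e-05). Both OSMI2 samples lay above both Scr samples in these 4 genes, as in all 12, because the choice required it. The other 8 of the 12 rises were MYO15B (0.93), ZMAT1 (0.89), GSDMB (0.89), CCDC9B (0.88), SSPOP (0.88), the mitochondrial carrier SLC25A27 (0.87), the adhesion receptor CELSR3 (0.87) and KRTCAP2 (0.87). GSDMB was not called without OSMI2 replicate 2 or Scr replicate 1, nor SSPOP without Scr replicate 1. With DMSO, MYO15B (0.75) and ZMAT1 (0.72) were called higher too.

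Among genes that overlap another tested gene, PPP1R10, a regulatory subunit of protein phosphatase 1 overlapping MRPS18B, rose most, from 15.9 and 22.8 to 45.1 and 64.5 CPM (1.49, SE 0.22, adjusted p = 8.99e-04). It stood at 242 and 227 CPM and 228 and 232 CPM in the DMSO samples of OSMI2 and Scr, above all 4 AT7519 samples. GVQW3 (1.45), overlapping 2 unnamed genes, and the chloride channel gene BEST1 (1.32), overlapping FTH1, followed. Of 4836 long non-coding genes tested, 259 were called higher (5.36%, against 5.18% of all tested genes) and 56 lower (1.16%, against 9.01%). Without Scr replicate 1 the counts were 86 and 24. ERVK13-1 (0.83), LINC01569 (0.72) and LINC02593 (0.72) rose most and EMSLR (-0.85), SNHG15 (-0.82) and MIR29B2CHG (-0.78) fell most among those without overlap. The call of MIR29B2CHG was lost under 8 of 13 alternatives, and that of EMSLR without OSMI2 replicate 2 or Scr replicate 1. SNHG15 stood at 114 and 98.5 CPM with OSMI2 and 176 and 199.9 CPM with Scr, and at 39.8 and 42.8 CPM and 53.8 and 53.4 CPM with DMSO.

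Among protein-coding genes without overlap and with a mean log2 CPM of 3 or more, the highest difference between the OSMI2 effects was that of SMAD6, which was higher with AT7519 and lower with DMSO, at 10.9 and 8.64 CPM with OSMI2 and 13.3 and 16.9 CPM with Scr in DMSO (-0.62, SE 0.17, adjusted p = 0.0476). The call of SMAD6 with DMSO was lost under 6 of 13 alternatives. Its difference of the effects was 1.62, SE 0.25, adjusted p = 0.00311. XRCC2, a gene of homologous recombination, stood at 25.1 and 24.1 CPM against 16.4 and 16.7 CPM with AT7519 and at 40.4 and 36.4 CPM against 43.3 and 47.2 CPM with DMSO (difference 0.80, SE 0.14, adjusted p = 0.0124). CCDC9B (difference 0.78), CYTH2 (0.71) and the receptor GPR157 (0.70) were the next highest, and GPR157 was called with DMSO (-0.46) and not with AT7519 (0.24). The lowest differences among such genes were BTG2 (-1.80), CLP1 (-1.38), the zinc exporter SLC30A1 (-1.28), TRIB1 (-1.27) and the molybdenum cofactor gene MOCS3 (-1.27). SLC30A1 stood at 13.7 and 8.45 CPM with OSMI2 and 31.1 and 23.6 CPM with Scr under AT7519, and at 56.2 and 52.6 CPM and 51.4 and 57.9 CPM with DMSO. MOCS3, which has 1 exon, stood at 4.61 and 3 CPM against 10.4 and 8.45 CPM and at 17.7 and 17.4 CPM against 17.9 and 17.4 CPM. The siOGT1 value of MOCS3 with AT7519 was 0.42 (adjusted p = 0.0912, and 0.0125 with a replicate block in the Scr and siOGT arms). Of the 45 differences called among genes named here, 4 held under all 17 alternatives (CCN1, PPM1D, SMAD6 and ZNF721), and 26 of the other 41 were lost only when a library was left out.

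Cholesterol genes were among those whose OSMI2 effect differed between AT7519 and DMSO. Of 26 tested genes of cholesterol synthesis and other targets of SREBP2, a transcription factor activated when sterols are depleted, 11 were called lower (42.3%) and none higher with AT7519 (median -0.28). With DMSO, 7 were called higher and 1 lower (median 0.30). The difference of the effects was called lower for 10. MVD, which makes isopentenyl diphosphate, stood at 42.8 and 49.8 CPM against 41 and 40.4 CPM with AT7519 (0.18, SE 0.10, adjusted p = 0.256) and at 66.8 and 81.5 CPM against 39.4 and 36.3 CPM with DMSO (0.97, SE 0.10, adjusted p = 8.52e-05). The sterol methyl oxidase MSMO1 stood at 118 and 144 CPM against 142 and 136 CPM with AT7519, where the groups overlapped, and at 197 and 243 CPM against 129 and 119.7 CPM with DMSO (0.82, SE 0.10, adjusted p = 6.99e-04).

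Among the genes called lower with AT7519 were NSDHL, FDPS (overlapping RUSC1-AS1), SQLE, DHCR7, STARD4 and MVK, at -0.39 to -0.30. Larger falls were those of, among others, the sterol isomerase EBP (-0.64), the thiolase ACAT2 (-0.58, overlapping TCP1), squalene synthase FDFT1 (-0.50, overlapping an unnamed gene) and IDI1 (-0.45, overlapping IDI2-AS1), and ACAT2 was the gene called lower with DMSO (-0.33). Among the differences called were those of MSMO1 (-0.91), MVK (-0.88, overlapping MMAB), LSS (-0.84, overlapping 2 unnamed genes), MVD (-0.78), IDI1 (-0.75), DHCR7 (-0.69, overlapping an unnamed gene), FDFT1 (-0.67) and STARD4 (-0.63, overlapping STARD4-AS1). The 11 calls with AT7519 became 6 under upper-quartile or library-size scaling and 7 without OSMI2 replicate 1. The 10 differences became 1 without OSMI2 replicate 2 of the DMSO samples and 2 without Scr replicate 2 of the DMSO samples, and the 7 calls with DMSO became 3 and 2. In the DMSO comparison the calls of MVD and MSMO1 held under all 13 alternatives.

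**Figure D3:**
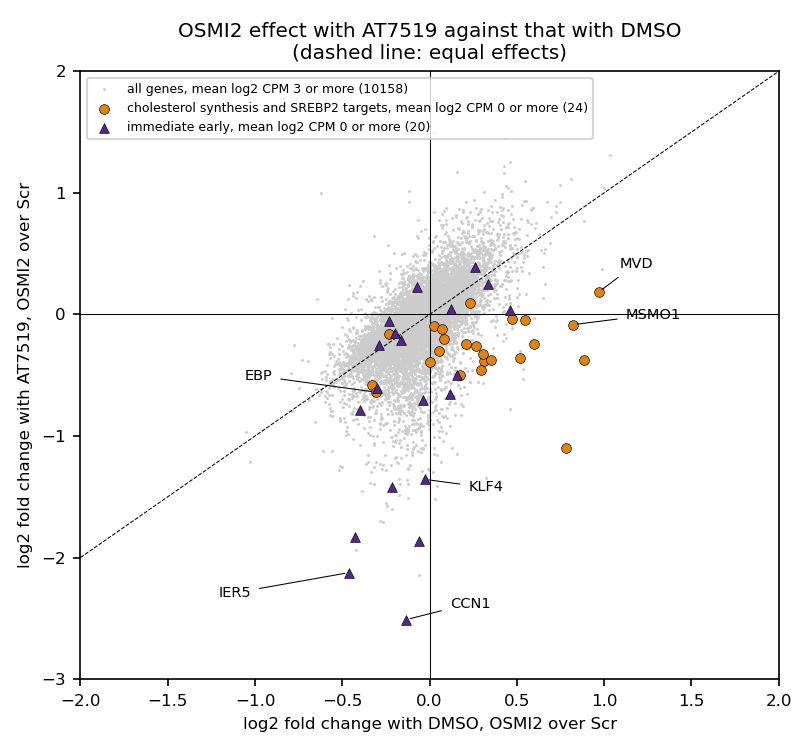
Log2 fold change of OSMI2 over Scr with DMSO (x axis) and with AT7519 (y axis), in grey for 10158 genes with a mean log2 CPM of 3 or more, with 24 cholesterol and 20 immediate early genes of a mean log2 CPM of 0 or more on top. Most cholesterol genes lie right of 0 and below the dashed line of equal effects, with MVD at 0.97 and 0.18. Immediate early genes spread on both axes, with CCN1 at -0.14 and -2.51, IER5 at -0.46 and -2.12 and ATF3 at 0.46 and 0.03.

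Targets of p53, the tumour suppressor that LNCaP cells carry in wild-type form, had the lowest median of the lists of 10 or more with AT7519. Of 32 tested, 17 were called lower (53.1%) and none higher (median -0.45), and 15 to 18 were lower under every scaling and with any of the 4 libraries left out. With DMSO 2 were lower and 1 higher (median -0.10). PPM1D (ENSG00000170836), the phosphatase that switches the DNA damage response off, stood at 7.47 and 6.79 CPM with OSMI2 and 22.5 and 18.4 CPM with Scr (-1.51, SE 0.12, adjusted p = 7.19e-07), and its difference from the DMSO effect was called (-1.39, SE 0.16, adjusted p = 5.05e-04). The exonuclease gene AEN stood at 70.5 and 68.7 CPM against 115 and 137 CPM (-0.86, SE 0.10, adjusted p = 1.63e-05), and was lower with DMSO too (-0.42). CDKN1A, which encodes the cell cycle inhibitor p21, stood at 129 and 125 CPM against 183 and 198 CPM (-0.58, SE 0.08, adjusted p = 1.44e-04). OSMI2 samples lay below Scr samples in all 3, which is not further evidence, because leading members of a list were named by their adjusted p. PHLDA3, an AKT inhibitor, fell by 1.68-fold, the sestrin SESN1 (overlapping an unnamed gene) by 1.40-fold and TP53INP1 (overlapping NDUFAF6) by 1.59-fold. The differences of TP53INP1 (-0.84), BBC3 (-1.35) and BTG2 were called as well. BBC3, which encodes the proapoptotic protein PUMA, had a value of -0.54 with AT7519 (adjusted p = 0.0601) and was called higher with DMSO (0.81). The 4 differences called became 1 without Scr replicate 2 with DMSO and 9 without OSMI2 replicate 1 with AT7519.

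Of 30 genes of the BCL2 family and caspases, 6 were called lower (20%, near the 20.3% of expressed protein-coding genes) and 2 higher, the former MCL1, BAK1, PMAIP1, BCL2L1, BIRC3 and BIRC5. Effectors and inhibitors of apoptosis were among them. The effector BAK1, overlapping GGNBP1, stood at 14.8 and 14.5 CPM against 23.8 and 23.4 CPM (-0.68, SE 0.10, adjusted p = 2.06e-04), and PMAIP1, the BH3-only antagonist of MCL1, at 7.54 and 6.11 CPM against 14.8 and 12.9 CPM (-1.01, SE 0.16, adjusted p = 2.79e-04). CFLAR, the inhibitor of caspase 8 activation, overlaps CFLAR-AS1 and was higher, at 43.4 and 44.7 CPM against 30.1 and 31.3 CPM (0.52, SE 0.09, adjusted p = 5.88e-04). BIRC3 (-0.82) lost its call under 5 of 13 alternatives.

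Of 36 genes of P-TEFb, the 7SK particle and elongation factors, 13 were called lower (36.1%) and none higher (median -0.22), with 8 lower without OSMI2 replicate 2 and 4 higher under upper-quartile or library-size scaling. Cyclin T1 (CCNT1), the partner of CDK9, stood at 89 and 62.7 CPM against 138 and 134 CPM (-0.83, SE 0.12, adjusted p = 9.88e-05), with a called difference from the DMSO effect (-0.74). The elongation factor ELL (overlapping an unnamed gene) had a value of -0.94 and was called lower. With DMSO 1 member was lower.

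Of 15 writers and readers of N6-methyladenosine, the internal mark of mRNA, 11 were called lower (73.3%) and none higher (median -0.30), and none was called with DMSO. The count was 7 under upper-quartile or library-size scaling and without OSMI2 replicate 2. RBM15, an adaptor of the writer complex overlapping RBM15-AS1, stood at 55.4 and 44.2 CPM with OSMI2 and 94.1 and 95.3 CPM with Scr under AT7519 (-0.92, SE 0.10, adjusted p = 1.01e-05). With DMSO it stood at 18.8 and 20.5 CPM and 21.5 and 19.5 CPM (difference -0.86, SE 0.14, adjusted p = 0.00617), so AT7519 samples were higher than DMSO samples in both arms. WTAP (-0.60, overlapping an unnamed gene) and the readers YTHDF1 (-0.67), YTHDF2 (-0.59) and YTHDF3 (-0.63) were lower, and the differences of YTHDF1 (-0.60) and YTHDF3 (-0.57) were called.

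Of 35 genes of cleavage, polyadenylation and the Integrator complex, 10 were called lower (28.6%) and none higher (median -0.12), and 4 without OSMI2 replicate 2. CSTF1, a subunit of the cleavage stimulation factor, stood at 22 and 19.7 CPM against 38.7 and 37.9 CPM (-0.87, SE 0.09, adjusted p = 1.01e-05; difference from DMSO -0.67), and CLP1 at 6.07 and 3.11 CPM against 16.6 and 12 CPM (-1.60, SE 0.21, adjusted p = 9.88e-05). WDR33 (-0.48, overlapping RNY4P7), which binds the polyadenylation signal, and INTS13 (-0.49) were lower too. Of 51 core spliceosome genes 24 were called lower (47.1%) and none higher (median -0.24), with 10 under library-size scaling, 7 without OSMI2 replicate 2 and 11 without Scr replicate 1. With DMSO 10 were lower, at a median of -0.23. CWC22, which loads the exon junction complex, stood at 14.4 and 11.1 CPM against 28.1 and 25.9 CPM (-1.07, SE 0.11, adjusted p = 6.40e-06; difference from DMSO -0.75), and the helicase DHX15 (overlapping MIR573) at 429.9 and 432 CPM against 590.4 and 602 CPM (-0.47, SE 0.07, adjusted p = 1.36e-04). SNRPF (-0.39, overlapping CCDC38) and PHF5A (-0.56) fell less. Of 53 SR proteins, hnRNPs and CLK kinases 12 were lower (22.6%, near the 20.3% of expressed protein-coding genes) and 1 higher, with 4 lower without OSMI2 replicate 2, and 13 were lower with DMSO (24.5%, against 5.94%). HNRNPAB (-0.40, overlapping PHYKPL), SRSF1 (-0.42, overlapping an unnamed gene) and SRSF2 (-0.39, overlapping MFSD11) were lower, and the epithelial splicing regulator ESRP1 (0.42, overlapping an unnamed gene) was the higher one, a call lost without OSMI2 replicate 1 or Scr replicate 1.

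**Figure D4:**
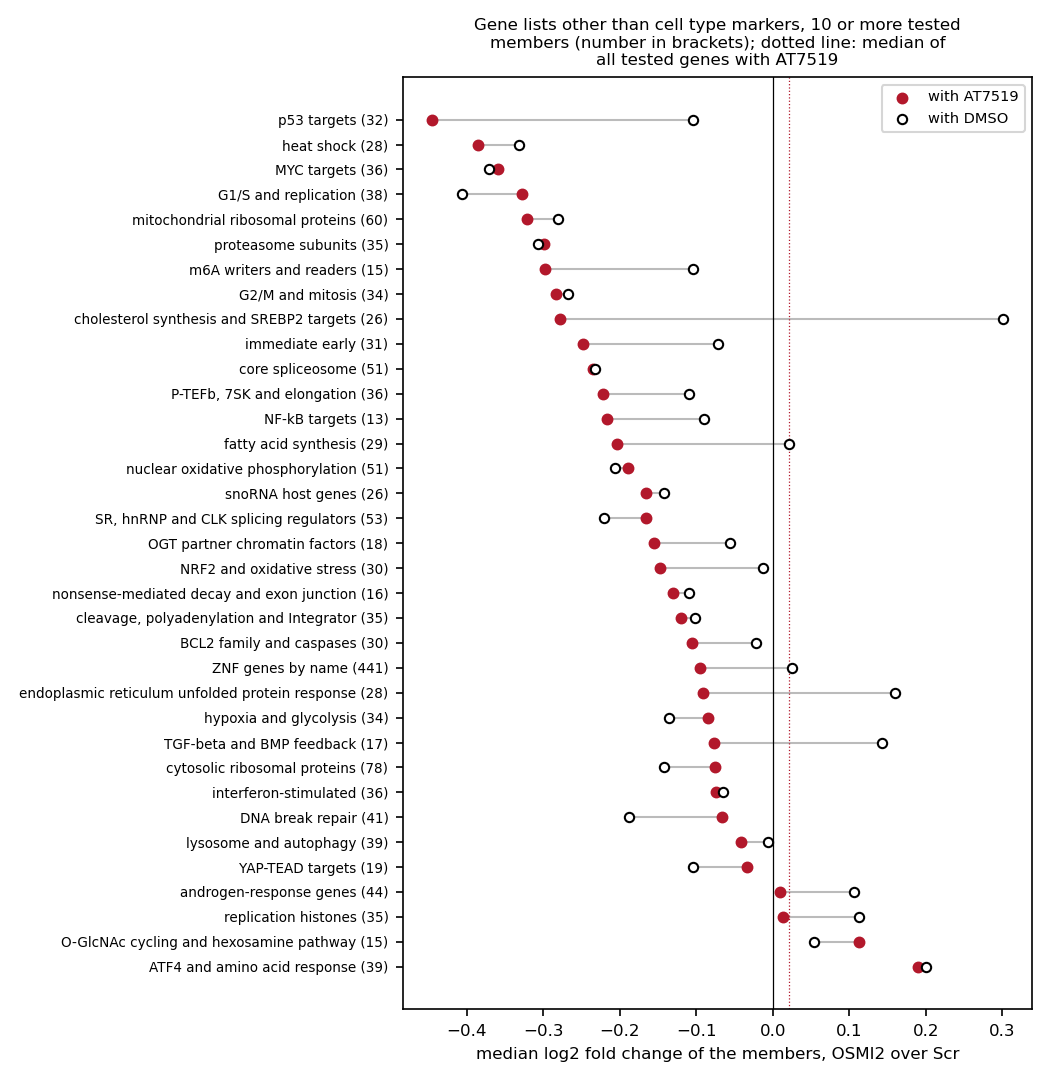
Median log2 fold change of OSMI2 over Scr for each gene list with 10 or more tested members other than the cell type markers, with AT7519 (filled) and with DMSO (open), the number of members in brackets. Medians with AT7519 run from -0.45 (p53 targets) to 0.19 (ATF4 and amino acid response), and the cholesterol list stands at -0.28 with AT7519 and 0.30 with DMSO.

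In the lists of MYC targets, G1/S, G2/M, mitochondrial ribosome, proteasome, oxidative phosphorylation and heat shock, the share called lower ran from 33.3% (oxidative phosphorylation) to 75% (MYC targets) with AT7519 and from 15.7% to 55.6% with DMSO. Without Scr replicate 2 of the DMSO samples none of their members was called lower with DMSO. Of 36 MYC targets 27 were called lower with AT7519 (median -0.36) and 20 with DMSO (median -0.37), and none was higher. TFRC, the transferrin receptor, stood at 461 and 514 CPM against 837 and 704 CPM with AT7519 (-0.66, SE 0.10, adjusted p = 2.41e-04) and at 387 and 451 CPM against 618 and 632 CPM with DMSO (-0.58, SE 0.10, adjusted p = 0.00456). NOP58 of the box C/D snoRNPs (overlapping SNORD70 and others) had values of -0.55 and -0.54, the RNA polymerase I subunit POLR1B of -0.62 and -0.38, and lactate dehydrogenase LDHA (overlapping an unnamed gene) of -0.56 and -0.57. All of these were called with both agents. Of 38 genes of G1/S and replication 20 were lower with AT7519 and 19 with DMSO. CDC25A, the phosphatase that activates CDK2 (overlapping 2 pseudogenes), stood at 14.4 and 13.1 CPM against 28.2 and 31.7 CPM (-1.12, SE 0.12, adjusted p = 6.40e-06). MCM10 had a value of -0.70, CDC6 of -0.68 and MCM6 of -0.53, and of these CDC6 was not called with DMSO (-0.32). Of 34 genes of G2/M and mitosis 16 were lower with AT7519 and 8 with DMSO. The mitotic kinase PLK1 (overlapping an unnamed gene) stood at 37 and 39.3 CPM against 67.7 and 61.6 CPM (-0.76, SE 0.09, adjusted p = 3.51e-05), CDC20 at -0.69, AURKA at -0.76 and CCNB1 at -0.53 on the log2 scale.

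Of 60 mitochondrial ribosomal protein genes 37 were lower with AT7519 (median -0.32) and 19 with DMSO (median -0.28), among them MRPL17 (-0.57), MRPS12 (-0.48, overlapping SARS2) and MRPL18 (-0.53). Proteasome subunits numbered 22 lower of 35 with AT7519 and 16 with DMSO, with PSMD12 at -0.56 and PSMC2 at -0.43 (overlapping DNAJC2 and others). Of 51 nuclear genes of oxidative phosphorylation 17 were lower with AT7519 and 8 with DMSO, ATP5MC3 (-0.43) and NDUFB10 (-0.36) among them. Of 28 heat shock genes 14 were lower and 2 higher with AT7519, and 8 were lower with DMSO. The heat shock factor HSF2 stood at 19.9 and 15.6 CPM against 32.8 and 30.2 CPM (-0.82, SE 0.13, adjusted p = 2.65e-04), the co-chaperone DNAJB1 (overlapping TECR) at 17.2 and 12 CPM against 32.5 and 26 CPM (-0.99, SE 0.15, adjusted p = 2.76e-04), and STIP1 (-0.48) and BAG3 (-0.60) were lower too. Of 78 cytosolic ribosomal protein genes 1 was called (RPS26, -0.24, overlapping an unnamed gene), and its call was lost under 6 of 13 alternatives.

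Upper-quartile scaling left 17 MYC targets, 13 genes of G1/S, 23 mitochondrial ribosomal protein genes and 4 of oxidative phosphorylation lower with AT7519. Leaving out OSMI2 replicate 2 with AT7519 left 15, 12, 17 and 6, with 10 of G2/M and 11 of the proteasome. Leaving out Scr replicate 1 with AT7519 left 13 of G1/S, 9 of G2/M and 8 of oxidative phosphorylation. Without Scr replicate 2 of the DMSO samples, none of the core spliceosome genes or splicing regulators was called lower with DMSO either. Leaving out OSMI2 replicate 2 of the DMSO samples left none lower with DMSO in G1/S, G2/M, mitochondrial ribosome, proteasome or oxidative phosphorylation, and 3 MYC targets.

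Genes of the amino acid response under ATF4 had the highest median of the pathway and target lists with AT7519 (0.19). With DMSO their median was 0.20, below the 0.30 of the cholesterol list. Of 39 tested, 10 were called higher (25.6%, against 5.51%) and 1 lower with AT7519 and 5 higher with DMSO. The 10 calls became 2 without OSMI2 replicate 1, 2 without Scr replicate 2 and 5 without Scr replicate 1, and 17 under upper-quartile or library-size scaling. VEGFA, the angiogenic growth factor, stood at 213 and 216 CPM against 136 and 135 CPM (0.66, SE 0.09, adjusted p = 7.70e-05) and was also higher with DMSO (0.42). The cystine transporter SLC7A11 (overlapping SLC7A11-AS1) stood at 381 and 294 CPM against 223 and 190.0 CPM (0.71, SE 0.15, adjusted p = 0.00567) and PCK2 (overlapping NRL) at 0.54 on the log2 scale. Both lost their calls without OSMI2 replicate 1 or Scr replicate 2. The neutral amino acid transporter SLC38A2 was the lower one (-0.48, SE 0.09, adjusted p = 0.00194). In the siRNA arms with AT7519, against the same Scr samples, VEGFA had values of -0.61 in siOGT1 and -0.35 in siOGT2 cells, and SLC7A11 of -0.61 and -0.38.

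Androgen-related genes were split. Of 44 androgen-response genes 7 were higher (15.9%) and 8 lower (18.2%), with a median of 0.01. KLK3, the gene of prostate-specific antigen, had 1271 and 1658 CPM against 1123 and 1096 CPM (0.40, SE 0.11, adjusted p = 0.0176) and KLK2 had 276 and 341 CPM against 173 and 214 CPM (0.67, SE 0.13, adjusted p = 0.00286). Both lost their calls without OSMI2 replicate 2 or Scr replicate 1, and KLK3 also without Scr replicate 2. The metalloreductase STEAP2 (overlapping STEAP2-AS1) was higher with AT7519 (0.39) and with DMSO (0.40). ZBTB10 (-0.68, overlapping an unnamed gene), PLPP1 (-0.58, overlapping MTREX and others) and the keratin KRT18 (-0.36, overlapping KRT8) were lower. Without OSMI2 replicate 2 the counts were 1 higher and 4 lower.

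The UGT2B enzymes, which glucuronidate and so inactivate androgens, were lower: 4 of 6 were called, none higher, at a median of -0.64, and with DMSO 2 were lower at the same median of -0.64. UGT2B10 stood at 37.9 and 34.1 CPM against 80.4 and 86.7 CPM (-1.21, SE 0.18, adjusted p = 4.36e-04) and UGT2B15 at 539 and 560.1 CPM against 909.9 and 878 CPM (-0.70, SE 0.13, adjusted p = 0.00166), and both were lower with DMSO (-1.03 and -0.69). The count of 4 was 2 when any 1 of the 4 libraries was left out and under upper-quartile or library-size scaling. UGT2B28 (-0.63) and UGT2B11 (-0.60, overlapping an unnamed gene) lost their calls under 7 of 13 alternatives. These genes are near-identical paralogs, so reads that match more than 1 of them make the single values uncertain.

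The share of genes called lower went down as the number of exons went up. Among the same 9586 protein-coding genes the share called lower with AT7519 was 43.3% of 104 genes with 1 exon, 43.3% of 187 with 2 exons, 30.8% of 1578 with 3 to 5, 21.3% of 3055 with 6 to 10, 17.2% of 3171 with 11 to 20 and 9.46% of 1491 with more than 20. The share called higher ran the other way, from 2.88% with 1 exon to 9.26% with more than 20. With DMSO the share called lower ran from 3.85% with 1 exon to 6.53% with 3 to 5 and 3.96% with more than 20. Of the 291 genes with 1 or 2 exons 126 were lower, with a median of -0.30, against -0.09 with DMSO. That count became 70 without OSMI2 replicate 2 and 70 without Scr replicate 1, and the 138 genes with more than 20 exons called higher became 262 under upper-quartile scaling and 21 without Scr replicate 1. Within each library, the median log2 CPM of genes with 1 or 2 exons minus that of genes with more than 20 was -1.39 and -1.48 with OSMI2 and AT7519 and -0.965 and -1.23 with Scr and AT7519. In siOGT1 cells with AT7519 it was -1.11 and -1.303 and in siOGT2 cells -1.14 and -1.365, so the OSMI2 samples were the lowest of the 8 with AT7519. With DMSO it was -1.09 and -1.085 with OSMI2 and -1.04 and -1.02 with Scr.

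**Figure D5:**
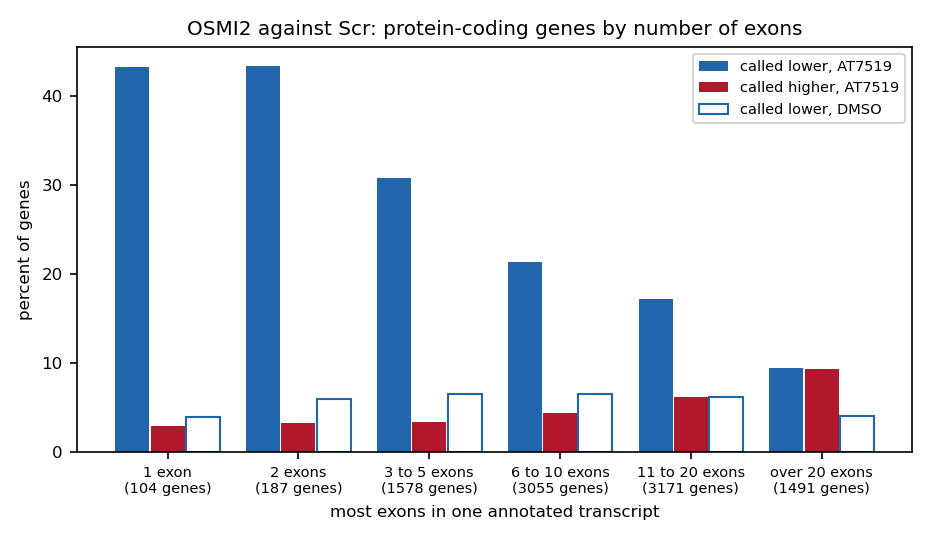
Percent of protein-coding genes (mean log2 CPM of 3 or more) called lower or higher with OSMI2 under AT7519, and called lower under DMSO, by the most exons in an annotated transcript of the gene, on a y axis from 0. The share called lower with AT7519 goes from 43.3% of genes with 1 exon to 9.46% of genes with more than 20.

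The genes were also sorted by how AT7519 changed them in siOGT1 cells, which are samples that the comparison does not use. The sorting is still not independent of it. Replicate differences of its Scr samples correlated across genes with those of siOGT1 cells with AT7519 (r = 0.684, and 0.707 for siOGT2). Shares below are for genes sorted by the siOGT1 response first. Of 51 genes lowered by AT7519 4-fold or more in siOGT1 cells, 17 were called lower with OSMI2 (33.3%), and of 578 lowered 2- to 4-fold 26.5% were. The share was 26.2% of 2172 genes lowered by under 2-fold and 16% of 3794 genes with no called response. It was 20.2% of 2964 genes raised by under 2-fold and 22.2% of 27 raised 2-fold or more. The 17 genes became 7 without OSMI2 replicate 2 or Scr replicate 1. Sorted by the response in siOGT2 cells, the shares in the same order were 23.9% of 46, 21.8% of 564 and 22.7% of 2121 lowered genes. They were 17.3% of 3528 genes with no called response, 21.6% of 3274 raised by under 2-fold and 28.3% of 53 raised 2-fold or more, the highest share. Sorted by the response in siOGT1 cells, calls higher were more frequent among the lowered genes too, at 7.84%, 7.61% and 6.77%. They were 7.30% of genes with no called response and 1.89% of genes raised by under 2-fold. The medians of the lowered classes were -0.08, -0.14 and -0.10, against -0.12 for genes raised by under 2-fold, so the shares are not a shift of a whole class.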

How the data were processed

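RNA from LNCaP cells was sequenced with a strand-specific total RNA protocol, per the labels' protocols. The authors deposited whole-number read counts per gene, made with STAR and HTSeq on hg19 (GRCh37) per the submitters' processing notes, which also list DESeq2. Their versions and the strand setting of the counting are not stated in those notes. From the deposited counts, edgeR 4.0.16 in R 4.3.3 (filterByExpr, TMM, robust quasi-likelihood fit) was fitted to all 16 samples in 8 groups, with 8 residual degrees of freedom and a common coefficient of variation of 0.11. P-values were two-sided and adjusted by Benjamini-Hochberg over 23830 genes, with calls under 0.05. On simulated counts for this comparison (23275 genes), 58.2% of 67 genes changed 1.5-fold, 77.6% of 67 changed 2-fold and 98.5% of 66 changed 4-fold were called. No other gene was changed there, while 14.2% of genes were called in the data. These shares are therefore not detection rates for the data.

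Named genes were 10 chosen by name, the 12 largest rises and falls among called, non-overlapping protein-coding genes with separated groups and a mean log2 CPM of 3 or more, 3 each way among overlapping genes and among long non-coding genes, 5 each way by the difference between agents, and the leading members of each list; FOS, EGR1, NR4A1, ATF3, DUSP1, IER2 and some further list members were added after their values were seen. Some genes that this rule gives are not reported here. The comparison, its gene lists and its tests were chosen with earlier results of these data known. Exons, overlaps and 3′ UTRs come from GENCODE v29 on GRCh38, which had models for 55951 of 60252 gene identifiers, while counting was on another build. Alternatives used DESeq2 1.42.0 and limma 3.58.1.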

Additional observations from a re-analysis of the deposited data

Results flagged for a closer look

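The OSMI2 effect with AT7519 differed from that with DMSO at 178 genes in edgeR's quasi-likelihood test of the interaction. Of the genes named here, 45 were among them, 38 with a lower and 7 with a higher effect under AT7519, and each value below is the log2 effect with AT7519 minus that with DMSO. Among regulators of signalling and immediate early genes, the values were -2.38 for CCN1, -1.80 for BTG2, -1.66 for IER5, -1.40 for DUSP2, -1.33 for KLF4, -1.27 for TRIB1, -0.97 for TGIF1 and -0.54 for MYC. Among p53 targets they were -1.39 for PPM1D, -1.35 for BBC3 and -0.84 for TP53INP1. Cholesterol genes had -0.91 (MSMO1), -0.88 (MVK), -0.84 (LSS), -0.78 (MVD), -0.75 (IDI1), -0.69 (DHCR7), -0.67 (FDFT1) and -0.63 (STARD4).

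RNA-processing and elongation genes had -1.38 (CLP1), -0.86 (RBM15), -0.75 (CWC22), -0.74 (CCNT1), -0.67 (CSTF1), -0.60 (YTHDF1) and -0.57 (YTHDF3). Zinc finger and other nuclear factors had -1.23 (ZSWIM1), -1.18 (ZNF92), -1.08 (ZBTB2), -0.79 (ZNF721), -0.77 (ZNF567), -0.67 (ZBTB10), -0.68 (NFE2L2), -0.61 (RNF168), -0.60 (SIN3A) and -0.59 (ZNF217). The zinc exporter SLC30A1 stood at -1.28 and MOCS3 at -1.27. The 7 higher values were 1.62 for SMAD6, 1.46 for PPP1R10, 1.02 for GVQW3, 0.80 for XRCC2, 0.78 for CCDC9B, 0.71 for CYTH2 and 0.70 for GPR157.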

How the results depend on the processing

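No named gene reversed its direction in a called comparison. With AT7519, 117 of 152 called named genes kept their calls under all 13 alternatives, and 18 of the other 35 lost theirs only when a library was left out. With DMSO 2 of 46 kept theirs (MVD and MSMO1). Upper-quartile scaling gave 1942 higher and 1387 lower with AT7519, library size alone 1940 and 1367, and testing only the more abundant genes (average log2 CPM no lower than 3) gave 1429 lower. With 1 library left out, calls with AT7519 ran from 1583 to 3212, with 372 to 901 higher and 1179 to 2311 lower. With DMSO they ran from 9 (without Scr replicate 2) to 371, with 6 to 48 higher and 3 to 323 lower, and differences ran from 33 to 378, with 3 to 28 higher and 30 to 360 lower.

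With DMSO, calls numbered 378 under upper-quartile scaling (221 lower), 390 with library size alone (209 higher, 181 lower), 1115 by DESeq2 (221 higher, 894 lower) and 1575 with only the groups compared (580 higher, 995 lower). Calls higher with DMSO numbered 257 with no low-count filter, 193 among the more abundant genes and 189 by limma voom. Differences numbered 551 with no filter (46 higher, 505 lower), 426 by DESeq2 (49 higher, 377 lower) and 285 with only the groups compared (268 lower), and limma voom called 12 higher. The cause was not tested.

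With a replicate block, 5555 genes were called with AT7519 (2297 higher, 3258 lower), 2391 with DMSO (581 higher, 1810 lower) and 784 differences (167 higher, 617 lower). The numbers were not taken to pair the samples: the replicate differences of OSMI2 and Scr correlated across genes with r of 0.095 with AT7519 and 0.0448 with DMSO, against 0.604 to 0.734 among the Scr and siOGT arms and 0.432 between the OSMI2 arms of both agents. The labels name no batch, so any difference in handling of the OSMI2 libraries cannot be told apart from OSMI2.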

Other observations

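Further lists are described by their counts with AT7519, beside 20.3% called lower and 5.51% higher among expressed protein-coding genes, and a share near these is not a result about the members. Of 441 genes named ZNF, which are mostly zinc finger repressors, 92 were called lower (20.9%) and 36 higher (8.16%; 45 lower without OSMI2 replicate 2), and 13 differences from DMSO were lower and 1 higher. ZNF92 stood at 6.56 and 6.29 CPM with OSMI2 and 19.7 and 13.2 CPM with Scr (-1.35, SE 0.18, adjusted p = 5.67e-05), and with DMSO at 27.5 and 24.7 CPM and 29.4 and 29.5 CPM. Of 26 hosts of small nucleolar RNAs 9 were lower with AT7519 (34.6%) and 6 with DMSO. Of 16 genes of nonsense-mediated decay 3 were lower (18.8%) and 2 higher, and its regulators SMG8 and SMG9, which bind each other, lay apart: SMG8 stood at 11.9 and 9.71 CPM against 26.4 and 20.3 CPM (-1.10, SE 0.18, adjusted p = 5.52e-04) and SMG9 at 7.68 and 7.79 CPM against 4.10 and 5.76 CPM (0.64, SE 0.15, adjusted p = 0.00827), a call lost under 4 of 13 alternatives. Of 39 lysosome and autophagy genes 7 were lower (17.9%) and 1 higher. VPS18, a subunit of the tethering complexes of late endosomes, fell by 2.03-fold, and WIPI1, an autophagosome protein overlapping ARSG, was the higher one (0.96).

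Of 17 feedback genes of TGF-beta and BMP signalling 4 were lower (23.5%) and 2 higher, with the corepressor TGIF1 at 6.38 and 8.08 CPM against 13.7 and 11.7 CPM (-0.83, SE 0.12, adjusted p = 1.85e-04). Of 13 NF-kB targets 3 were lower (23.1%): NFKB1 (-0.67), BIRC3 and IRF1 (-0.97, overlapping IRF1-AS1, a call lost under 5 of 13 alternatives). NFE2L2, which encodes the oxidative stress factor NRF2 and overlaps AGPS, stood at 25.8 and 22.6 CPM against 36.3 and 37.9 CPM (-0.61, SE 0.09, adjusted p = 2.05e-04), and 6 of 30 NRF2 and oxidative stress genes were lower (20%) and 1 higher. Both called genes of 7 tested in zinc handling were lower, the exporter SLC30A1 and MTF1, the zinc-sensing factor that induces it (-0.57). Of 29 fatty acid synthesis genes 8 were lower (27.6%) and 1 higher, and of 34 hypoxia and glycolysis genes 8 were lower (23.5%) and 2 higher, with 7 lower with DMSO. Of 41 DNA break repair genes 8 were lower (19.5%) and 2 higher. The ubiquitin ligase RNF168 (overlapping an unnamed gene) had a value of -0.74 and the nuclease EXO1 of -0.66, while XRCC2 (0.57) and the kinase ATM (0.50, overlapping NPAT) were higher. Of 36 interferon-stimulated genes 3 were lower (8.33%) and 2 higher, and of 28 genes of the unfolded protein response of the endoplasmic reticulum 2 were lower with AT7519 and 3 higher with DMSO. Of 35 replication histone genes 1 was called, of 19 YAP-TEAD targets 2 lower and 1 higher, and of 9 aryl hydrocarbon receptor targets 2 lower.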
